A study of Mus musculus with 6 samples.

Results

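The genes described here encode the machinery that brings new proteins into the endoplasmic reticulum (ER), removes their signal peptides and attaches their N-linked sugars. They were chosen by name, as 34 listed symbols in 6 complexes, and all 34 were found among the 20938 genes of the deposited table. The list was drawn up with earlier results of the same comparison known, so every value of that comparison below, adjusted p-values included, describes the members and is not independent support.

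RNA was sequenced from RAW264.7 cells, a mouse macrophage line used as a source of osteoclasts, the cells that resorb bone, and all samples were under osteoclast-inducing conditions. One group received the solvent DMSO (n = 3) and the other neobavaisoflavone (NBIF), an isoflavone made by plants, at 8 µM (n = 3). The labels name the cells macrophages from bone marrow, and state neither the inducing agent, the time of treatment nor whether samples of a group came from separate cultures. The p-values therefore cover only the spread among these samples, possibly of technical origin. Values are FPKM, fragments per kilobase of transcript and per set number of fragments sequenced. Comparisons of level between genes rest on the gene lengths used, which no source used here gives.

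Secretory and membrane proteins are recognised by their signal sequence as they leave the ribosome. The signal recognition particle (SRP) binds that sequence, pauses translation and docks the ribosome at the SRP receptor, which passes the chain to the SEC61 channel. The TRAP complex beside the channel helps some chains to enter, signal peptidase cuts off the signal peptide, and oligosaccharyltransferase (OST) transfers a preassembled sugar chain onto asparagine residues. Osteoclasts send proteases, integrins and lysosomal membrane proteins through this route.

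With NBIF, 21 of the 34 genes were higher at a limma adjusted p under 0.05 and 0 were lower, at ratios of mean FPKM between 1.15 and 1.44. In the same fit, 18.6% of 9936 tested genes were called, 10.5% higher and 8.08% lower. All 34 members passed the filter of a mean of at least 1 FPKM. Their median log2 change was 0.26, against 0.04 for all tested genes. Of their 34 changes 33 were above 0, as were those of 6059 of the 9936 tested genes. Each NBIF sample lay above each DMSO sample for 27 members, where this held for 24.6% of tested genes. Because this comparison was known when the genes were chosen, nothing is read from these shares.

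**Figure D1:**
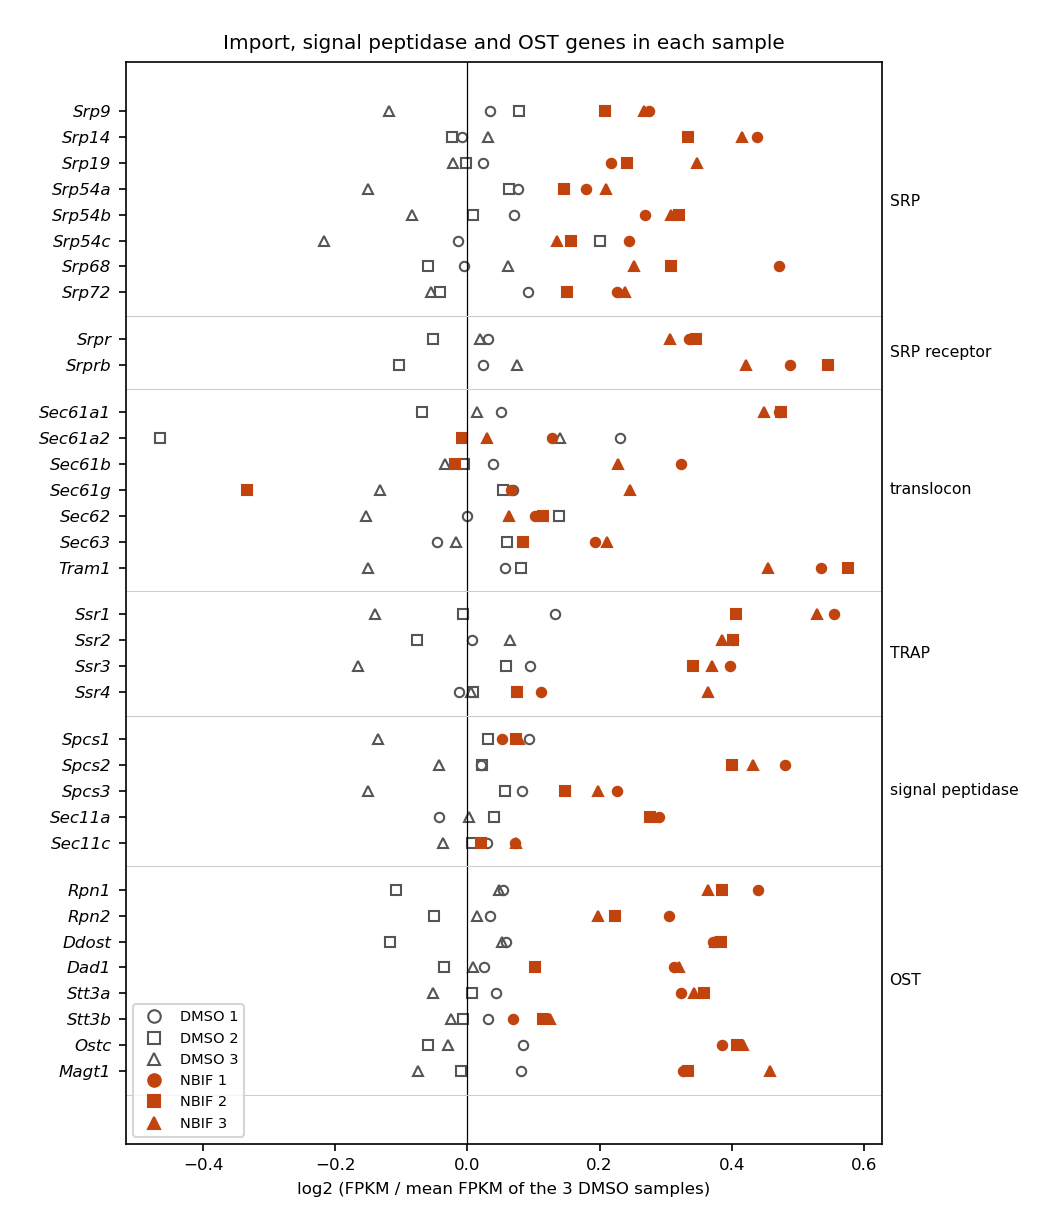
FPKM of each gene in each of the 6 samples, as log2 of its ratio to the mean of the 3 DMSO samples; open symbols are DMSO, filled symbols NBIF, and symbol shapes mark the replicate number. For 27 of 34 genes all NBIF samples lie to the right of all DMSO samples, and Sec61a2, Sec61b, Sec61g, Sec62, Srp54c, Spcs1 and Sec11c are the 7 whose groups overlap.

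The FPKM of a sample summed to between 484603 and 494172, and steps between values under 0.05 FPKM put the relative depth at 0.889 to 1.09 times that of DMSO 1. Absolute depth is unknown. Summed FPKM of 8 macrophage markers ranged from 2336 to 2508 in DMSO and from 1422 to 1483 in NBIF, and that of 10 osteoclast markers from 7581 to 8206 and from 5795 to 6620. Among the macrophage markers, Lyz2 had 827, 682 and 729 FPKM in DMSO and 150, 168 and 153 in NBIF. Ctsk and Atp6v0d2 held most of the osteoclast sum, and of the osteoclast markers only Itgb3 and Oscar had overlapping groups. The marker sums moved with the groups, and their part in the results below was not tested. In such bulk samples, fewer cells of a type and less RNA per cell cannot be told apart. The osteoclast marker Calcr reached only 0.306 FPKM. Of 17 markers of fibroblasts, B cells, T cells and neutrophils, 6 were at 0 in every sample, and the summed level of any of these lists was at most 0.309 FPKM.

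The 34 genes together held 3364, 3199 and 3214 FPKM in the DMSO samples and 4159, 4074 and 4096 in the NBIF samples. The sum was 1.26 times as high with NBIF, a rise from 0.660% to 0.842% of all FPKM. The channel subunit gene Sec61a1, the OST subunit gene Rpn2 and the OST catalytic gene Stt3a made up 44.8% of the DMSO sum. By complex, the ratio of summed FPKM was 1.35 for the translocon, 1.28 for TRAP, 1.27 for the SRP receptor, 1.23 for OST, 1.20 for SRP and 1.18 for signal peptidase. In all 6 complexes the sums of the groups did not overlap. Each NBIF sample lay above each DMSO sample for 24.6% of single tested genes, and no such share was computed for sums. The translocon sum follows Sec61a1, which held 562 of its 753 FPKM in DMSO.

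**Figure D2:**
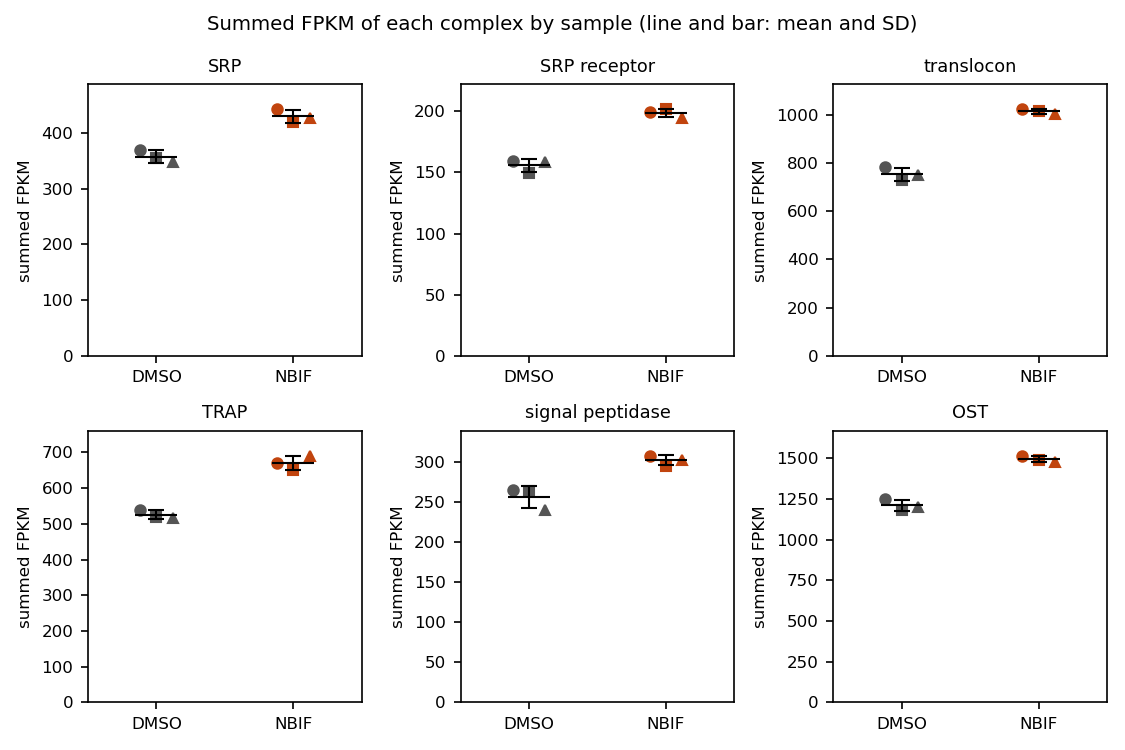
Summed FPKM of the members of each complex in each sample, with the mean (line) and SD (bar) of 3 samples per group; the axes start at 0. Every NBIF sum lies above every DMSO sum, with the smallest ratio of means (1.18) for signal peptidase and the largest (1.35) for the translocon.

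Of the 8 SRP genes, 6 were called higher, where 10.5% of all tested genes were. The changes of the 8 genes spanned 0.18 to 0.37 on the log2 scale. Srp14, which with Srp9 forms the part of the particle that pauses translation, had 14.1, 14.0 and 14.5 FPKM in DMSO and 19.2, 17.9 and 18.9 in NBIF. The groups were well apart, and the log2 change was 0.37 ± 0.05 (SE), with a limma adjusted p of 0.00272. Srp68, which with Srp72 binds the SRP RNA, had 94.7, 91.2 and 99.1 FPKM in DMSO and 131.7, 117.7 and 113.1 in NBIF. NBIF 1 was the highest of these, and the log2 change was 0.34 ± 0.06 (adjusted p = 0.00799).

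The calls of the SRP genes Srp9, Srp19 and Srp72 were fragile. Srp9 went from 12.6 ± 0.89 to 15.0 ± 0.37 FPKM (mean ± SD, n = 3; adjusted p = 0.0380), and leaving out DMSO 1 or 3 gave an adjusted p of 0.0777 or 0.0622, and leaving out NBIF 1, 2 or 3 gave 0.118, 0.0752 or 0.112. Srp19, which helps assemble the particle, went from 5.10 ± 0.080 to 6.15 ± 0.30 FPKM (adjusted p = 0.0409). Its call was lost without any one sample, at 0.0924, 0.0851 and 0.0701 without DMSO 1, 2 and 3, and at 0.0805, 0.0889 and 0.137 without NBIF 1, 2 and 3. Srp72 went from 120.9 ± 6.88 to 139.5 ± 4.51 FPKM (adjusted p = 0.0302), which became 0.0759 or 0.0580 on leaving out DMSO 2 or 3, and 0.103 or 0.108 on leaving out NBIF 1 or 3. Even so, no NBIF sample of these genes was as low as a DMSO sample. After median-ratio scaling, all 3 missed the threshold, at 0.0737 for Srp9, 0.0776 for Srp19 and 0.0718 for Srp72, and likewise with no filter on low values, at 0.0639, 0.0721 and 0.0542.

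Srp54, the GTPase that holds the signal sequence, is encoded in the mouse by the neighbouring genes Srp54a, Srp54b and Srp54c on the plus strand of chromosome 12 (GRCm38, GENCODE M21: 55080262 to 55115367, 55155104 to 55189573 and 55230168 to 55263836). The coding sequences of Srp54a and Srp54b are identical over 1515 bases, and Srp54c differs from both at 6 positions. Values of single copies are therefore uncertain, because reads from the coding exons cannot be assigned to Srp54a or Srp54b. The following lines show coding positions 876 to 965, the 90-base stretch with the most differences, with the 3 differing bases in capitals.
Srp54a: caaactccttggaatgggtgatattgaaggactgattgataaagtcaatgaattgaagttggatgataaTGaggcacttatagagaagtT
Srp54b: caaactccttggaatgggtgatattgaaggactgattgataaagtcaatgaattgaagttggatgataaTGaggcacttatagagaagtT
Srp54c: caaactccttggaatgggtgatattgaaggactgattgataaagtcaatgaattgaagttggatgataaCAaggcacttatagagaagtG

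Srp54b was called higher, from 57.2 ± 3.06 to 70.4 ± 1.33 FPKM, which is 0.30 ± 0.05 on the log2 scale (adjusted p = 0.00634). Srp54a went from 36.0 ± 3.09 to 40.7 ± 0.89 FPKM (adjusted p = 0.102), with all NBIF samples above the DMSO samples, and its log2 change of 0.18 was 0.11 without DMSO 3. Srp54c had 16.0, 18.6 and 13.9 FPKM in DMSO and 19.1, 18.0 and 17.7 in NBIF, so that DMSO 2 lay within the NBIF range. Its log2 change of 0.18 (adjusted p = 0.227) was 0.28 without DMSO 2 (0.0492) and 0.08 without DMSO 3 (0.484).

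Both SRP receptor genes were called higher, where 10.5% of all tested genes were. Srprb, the membrane-anchored subunit, had 18.5, 17.0 and 19.2 FPKM in DMSO and 25.6, 26.6 and 24.4 in NBIF. The log2 change was 0.47 ± 0.06 (adjusted p = 0.00186). Srpr, the subunit that meets SRP, had 140.7, 132.9 and 139.6 FPKM in DMSO and 173.8, 175.0 and 170.4 in NBIF. Its level was higher than that of Srprb in every sample, and its log2 change was 0.33 ± 0.04 (adjusted p = 0.00147).

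Of the 7 translocon genes, only Sec61a1 and Tram1 were called higher, where 10.5% of all tested genes were. Sec61a1, which encodes the channel itself, had the highest FPKM of the 34 genes, at 583, 536 and 568 in DMSO and 779, 781 and 768 in NBIF. The log2 change was 0.46 ± 0.04 (adjusted p = 0.000241). Tram1, whose product contacts nascent chains beside the channel and aids their insertion, had 92.7, 94.3 and 80.3 FPKM in DMSO and 129.2, 132.8 and 122.2 in NBIF. Its log2 change of 0.52 ± 0.07 (adjusted p = 0.00146) was the largest of the 34 genes.

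The small channel subunit genes did not pass the test. Sec61b had 21.3, 20.6 and 20.2 FPKM in DMSO and 25.9, 20.4 and 24.2 in NBIF. NBIF 2 lay within the DMSO range. The log2 change of 0.17 (adjusted p = 0.192) was 0.26 without NBIF 2 (0.0380) and 0.10 without NBIF 1 (0.476). Sec61g had 7.19, 7.11 and 6.25 FPKM in DMSO and 7.17, 5.44 and 8.13 in NBIF, with the lowest and the highest value both in NBIF (log2 change of -0.0017 ± 0.12). Its sign turned when samples were left out. Sec61a2, a second gene for the channel subunit, had 28.2, 17.4 and 26.5 FPKM in DMSO and 26.3, 23.9 and 24.6 in NBIF. The 2 highest values were in DMSO, and its log2 change of 0.08 ± 0.15 became -0.13 without DMSO 2.

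Sec62 and Sec63 serve the entry of chains that need help beyond SRP, and Sec63 draws the chaperone BiP to the channel through its J domain. Sec62 went from 30.4 ± 3.08 to 32.5 ± 0.61 FPKM (adjusted p = 0.397) with overlapping groups. Its log2 change of 0.09 was 0.16 without DMSO 2 and 0.02 without DMSO 3. Sec63 went from 19.6 ± 0.75 to 22.0 ± 1.03 FPKM (adjusted p = 0.0988) without overlap.

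In TRAP, 3 of 4 genes were called higher, where 10.5% of all tested genes were. Ssr1, the alpha subunit gene, had 67.0, 60.9 and 55.5 FPKM in DMSO and 89.8, 81.0 and 88.2 in NBIF (log2 change of 0.49 ± 0.07, adjusted p = 0.00285). Ssr2, the beta subunit gene, had 209, 197 and 218 FPKM in DMSO and 275, 275 and 272 in NBIF. The NBIF samples were nearly equal, and the log2 change was 0.40 ± 0.05 (adjusted p = 0.000840). The gamma subunit gene Ssr3 went from 120.6 ± 11.4 to 155.9 ± 2.98 FPKM (adjusted p = 0.00722). The delta subunit gene Ssr4 had 134.8, 136.8 and 136.5 FPKM in DMSO and 146.9, 143.2 and 175.0 in NBIF. All NBIF values were above DMSO, but NBIF 3 stood well above the others and the adjusted p was 0.119. The log2 change of Ssr4 was 0.18, and 0.09 without NBIF 3.

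Among the 5 signal peptidase genes, Spcs2 and Sec11a were called higher, where 10.5% of all tested genes were. Spcs2, an accessory subunit gene, had 52.7, 52.8 and 50.5 FPKM in DMSO and 72.6, 68.6 and 70.1 in NBIF (log2 change of 0.43 ± 0.05, adjusted p = 0.000592). Sec11a, one of the alternative catalytic subunit genes, had 36.7, 38.9 and 37.9 FPKM in DMSO and 46.3, 45.8 and 46.0 in NBIF. The log2 change was 0.28 ± 0.05 (adjusted p = 0.00504). Sec11c, the other catalytic subunit gene, had 23.5, 23.2 and 22.5 FPKM in DMSO and 24.2, 23.4 and 24.3 in NBIF. These ranges overlapped, with a log2 change of 0.05 ± 0.05 (adjusted p = 0.496).

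The remaining accessory genes also missed the threshold. Spcs3 went from 120.3 ± 10.4 to 137.3 ± 3.77 FPKM (adjusted p = 0.0734) without overlap. Its lowest DMSO value, 108.4 FPKM, was in DMSO 3, and the log2 change of 0.19 was 0.12 without that sample. Spcs1 had 23.4 ± 1.88 and 24.5 ± 0.22 FPKM with overlapping groups, and its log2 change of 0.07 was 0.11 without DMSO 1 and 0.01 without DMSO 3.

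Of 8 OST genes, 6 were called higher, where 10.5% of all tested genes were. Ostc, a subunit gene of the form of OST that acts beside the channel, had 54.2, 49.0 and 50.1 FPKM in DMSO and 66.7, 67.8 and 68.2 in NBIF (log2 change of 0.40 ± 0.05, adjusted p = 0.00145). Rpn1, which encodes ribophorin I, had 116.2, 103.9 and 115.7 FPKM in DMSO and 151.9, 146.3 and 144.2 in NBIF. The groups were well apart, with a log2 change of 0.40 ± 0.05 (adjusted p = 0.00205). Rpn2, which encodes ribophorin II, had 539, 509 and 532 FPKM in DMSO and 651, 615 and 604 in NBIF (log2 change of 0.24 ± 0.04, adjusted p = 0.00757). Ddost, another subunit gene shared by all forms of OST, went from 33.2 ± 2.26 to 43.2 ± 0.19 FPKM (adjusted p = 0.00384). Dad1, also shared by all forms, went from 10.8 ± 0.23 to 12.9 ± 1.08 FPKM. All its NBIF samples were above DMSO, but its adjusted p was 0.0566, and 0.0281 without NBIF 2.

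OST exists with either of 2 catalytic subunits: STT3A works on chains as they pass the channel, and STT3B also modifies sites after import, together with the oxidoreductase MAGT1 or its relative TUSC3. Stt3a had 383, 373 and 358 FPKM in DMSO and 464, 476 and 471 in NBIF, a log2 change of 0.34 ± 0.04 (adjusted p = 0.000964). Stt3b had 28.2, 27.5 and 27.1 FPKM in DMSO and 28.9, 29.9 and 30.1 in NBIF, a log2 change of 0.10 ± 0.05 (adjusted p = 0.193). Both had NBIF above DMSO in every sample. Magt1 had 81.5, 76.6 and 73.2 FPKM in DMSO and 96.6, 97.2 and 105.9 in NBIF (log2 change of 0.37 ± 0.06, adjusted p = 0.00363). Tusc3, from outside the 34 genes, had 7.01 ± 0.49 and 6.38 ± 0.052 FPKM (adjusted p = 0.269).

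**Figure D3:**
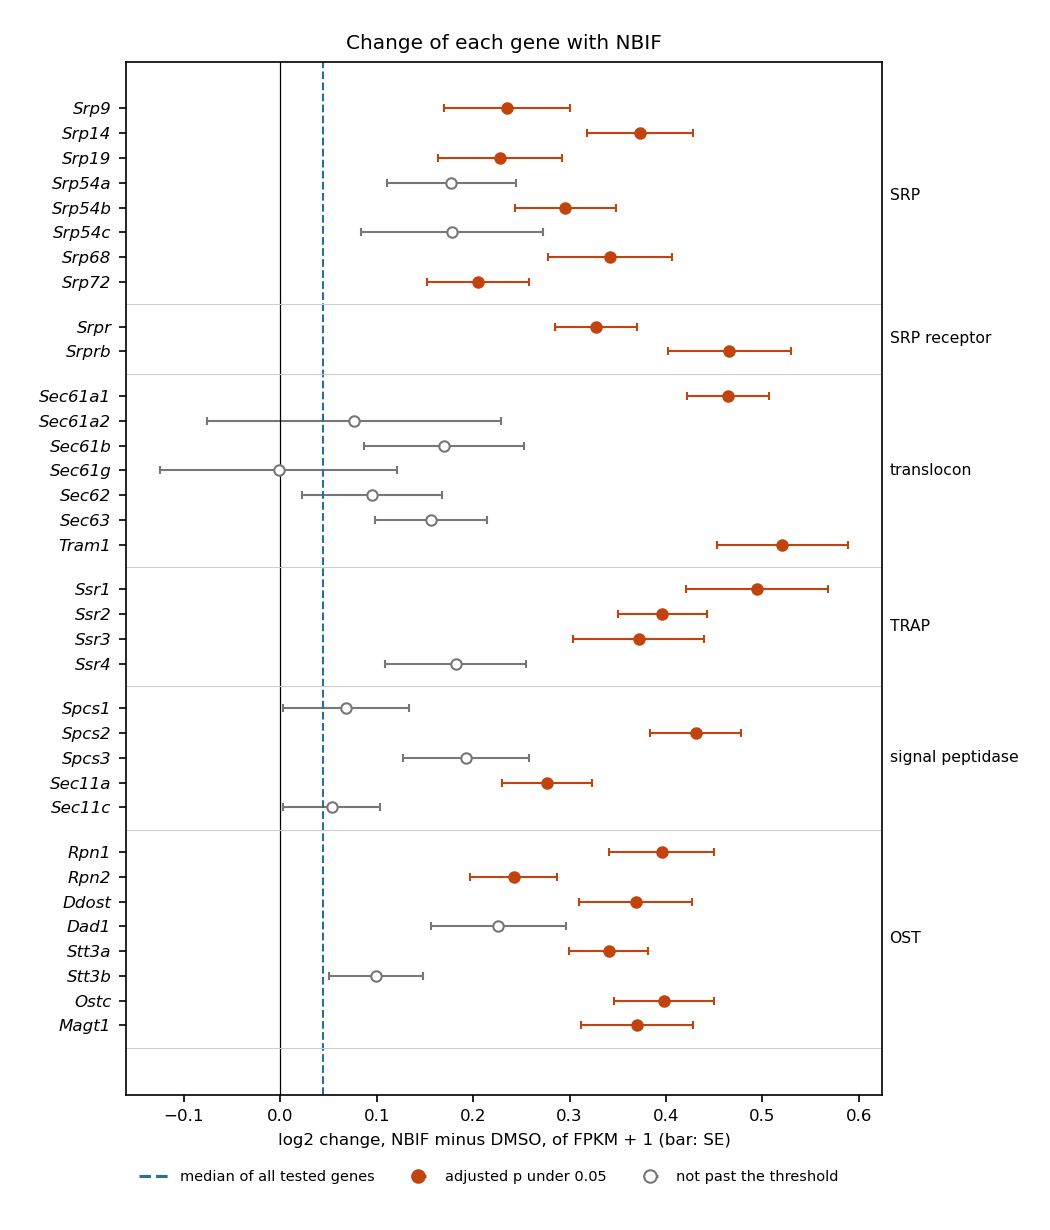
Log2 change with NBIF of each gene, on FPKM + 1, with its SE; filled points passed an adjusted p of 0.05 in the fit across all 9936 tested genes, and the dashed line is the median of these (0.04). Tram1 (0.52) and Ssr1 (0.49) lie farthest to the right, and Sec61g (-0.0017) is the only gene below 0.

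Ratios between subunits within a sample do not depend on how the sample was scaled. The ratio of Stt3a to Stt3b was 13.6, 13.6 and 13.2 in DMSO and 16.0, 15.9 and 15.6 in NBIF, 1.18 times as high. That of Sec11a to Sec11c was 1.56, 1.68 and 1.69 in DMSO and 1.91, 1.96 and 1.90 in NBIF, 1.17 times as high. Rpn1 to Rpn2 went from 0.212 ± 0.0071 to 0.237 ± 0.0028, and Srp54a to the sum of Srp54b and Srp54c from 0.490 ± 0.011 to 0.459 ± 0.013. In these 4 pairs the groups did not overlap. For Sec61a1 to Sec61a2, Ssr3 to Ssr4, Srp9 to Srp14 and Srp68 to Srp72 they did. The ratio of the Srp54 copies is uncertain, because reads from the coding exons cannot be assigned to Srp54a or Srp54b. How often ratios of other genes separate the groups was not computed. In DMSO, Sec61a1 to Sec61a2 was 20.6, 30.8 and 21.4, and DMSO 2 alone lay within the NBIF range of 29.6 to 32.7. No test was run on the ratios, since members were chosen with their changes known.

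**Figure D4:**
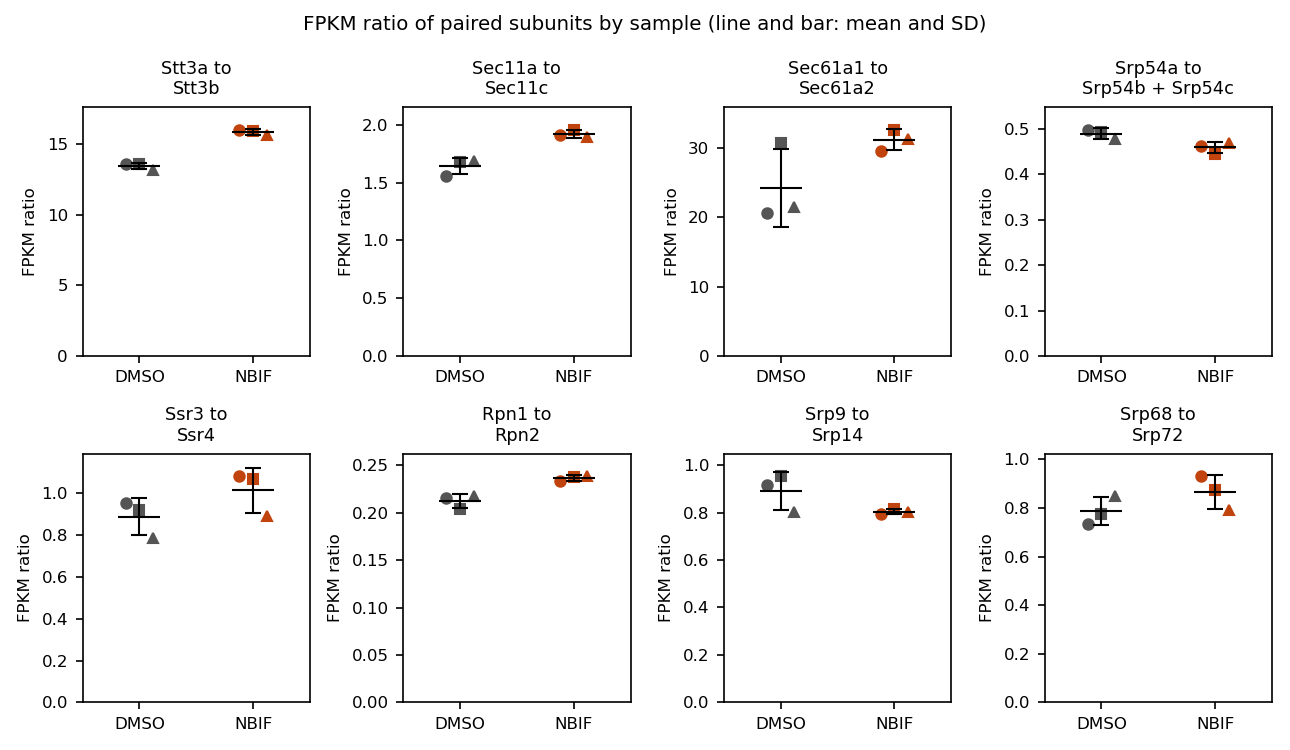
Ratio of the FPKM of 2 subunit genes within each sample, for 8 pairs, with the mean (line) and SD (bar) of 3 samples per group; the axes start at 0. The ratio of Stt3a to Stt3b (13.2 to 13.6 in DMSO, 15.6 to 16.0 in NBIF) and that of Sec11a to Sec11c (1.56 to 1.69 and 1.90 to 1.96) separate the groups, and that of Sec61a1 to Sec61a2 does not.

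Levels in DMSO spanned from 5.10 FPKM for Srp19 to 562 FPKM for Sec61a1, the 22.9th to the 98.7th percentile of tested genes. Members of one complex were not level with each other: in OST, Rpn2 stood at 527 FPKM and Dad1 at 10.8, and in the channel Sec61a1 at 562, Sec61b at 20.7 and Sec61g at 6.85. No source used here gives the length by which the authors divided each gene, and its part in such differences was not tested. Across the 34 genes, the log2 change correlated with the log10 DMSO level at a Pearson r of 0.45 and a Spearman rho of 0.43. This is a description, since all genes share the same 6 samples and the DMSO values enter both measures. The change is also on log2(FPKM + 1), which understates that of low genes. With pseudocounts of 0.1, 1 and 5, Srp19 changed by 0.26, 0.23 and 0.14, and Sec61a1 by 0.47, 0.46 and 0.46. The part of this scale in the correlation was not tested. With log10 exon length, the change had an r of 0.08 across members. Among 563 tested genes with under 1500 bases of exon, 5.51% were higher and 17.4% lower, but Srp14 and Sec61b are the only members of that class.

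By GENCODE M21, exons of 13 members overlap those of another gene, and no source used here gives the strand setting of the counting. The share of exon bases reached 20.7% for Srprb, with the same-strand gene Gm20425, and 19.9% for Sec61a2, with Nudt5 on the opposite strand. It was 16.3% for Spcs1 with Glt8d1, 14.1% for Srp9, 12.8% for Ssr2, 11.7% for Sec62 and 8.16% for Sec61a1. The overlaps of Sec61a2, Spcs1, Srp9, Ssr2, Sec62 and Sec61a1 are with genes on the opposite strand, whose reads can be told apart only where counting used the strand. Their part in the changes was not tested.

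The promoters of the members were searched for sequence elements of the unfolded protein response, the programme by which the transcription factors ATF6, XBP1 and ATF4 raise ER genes. Of the 34 genes, 26 matched an entry of the RefSeq promoter table (GRCm38.p6), and the 250 bases before each start were searched on both strands. The ER stress element (ERSE), CCAAT followed after 9 bases by CCACG, was in 0 of the 26 genes and in 0.173% of the tested genes with an entry. The elements ERSE-II (ATTGG, any 1 base, CCACG), TGACGTGG, TGACGTCA and TGATGCAAT were also in 0 of the 26, and in 0.0742%, 0.903%, 3.37% and 0.111% of tested genes. The shorter core ACGTGG, part of the XBP1 element and of TGACGTGG, was added after these results. It was in 5 of 26 members, Sec63, Spcs1, Srprb, Ssr1 and Ssr3, and in 11.8% of tested genes. Of these 5, Srprb, Ssr1 and Ssr3 were called higher, and Sec63 and Spcs1 were not. Of all 34 members, 21 (61.8%) were called higher, and of all tested genes 10.5%. Whether the match goes with the calls was not tested. A match describes letters and not a bound site.

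The matches in Srprb, Ssr1, Ssr3, Sec63 and Spcs1 are shown 5′ to 3′ on the strand of the gene, with the match to ACGTGG (here as its reverse complement) in capitals. The full element before Hspa5, which encodes the ER chaperone BiP, is given for comparison. In GRCm38.p6 they lie at chr9:103202071-103202126 (minus strand) for Srprb, chr13:37994251-37994306 (minus) for Ssr1, chr3:65392713-65392768 (minus) for Ssr3, chr10:42761449-42761495 (plus) for Sec63, chr14:31001696-31001751 (minus) for Spcs1 and chr2:34772000-34772068 (plus) for Hspa5. The first capital lies 36, 73, 190, 22, 60 and 65 bases before the start, in that order, and Ssr1 has a second match 26 bases before its start.
Srprb: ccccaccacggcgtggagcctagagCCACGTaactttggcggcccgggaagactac
Ssr1: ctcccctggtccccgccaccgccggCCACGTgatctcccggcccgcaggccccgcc
Ssr3: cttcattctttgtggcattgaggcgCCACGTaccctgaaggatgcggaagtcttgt
Sec63: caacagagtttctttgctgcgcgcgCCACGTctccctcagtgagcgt
Spcs1: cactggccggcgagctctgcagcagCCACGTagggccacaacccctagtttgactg
Hspa5: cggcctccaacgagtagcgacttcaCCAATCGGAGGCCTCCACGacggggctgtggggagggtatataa

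Other ER genes were followed as lists. Of 8 genes of BiP and its partners, 6 were called higher and 0 lower (median log2 change of 0.40), against 10.5% higher among all tested genes. Hspa5 had 472, 436 and 418 FPKM in DMSO and 590.1, 575 and 589 in NBIF, a log2 change of 0.40 ± 0.05 (adjusted p = 0.00120). The BiP nucleotide exchange factor gene Hyou1 changed by 0.53 and its co-chaperone gene Dnajc3 by 0.45, both called higher. Of 10 genes of glycan trimming and lectin chaperones, 7 were called higher and 0 lower (median 0.23). Among them, Edem2, which acts in the disposal of misfolded glycoproteins, changed by 0.55 and the lectin chaperone gene Calr by 0.37.

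Lists of other import routes and of the sugar supply are set beside the 10.5% of all tested genes called higher. Of 21 genes that assemble the lipid-linked sugar chain used by OST, 3 were called higher (14.3%) and 0 lower (median 0.05). They include Alg2, a mannosyltransferase gene, at 0.51, and Dpagt1, which starts the chain, at 0.36. Among 10 genes of the ER membrane complex, which inserts membrane proteins, 0 were called in either direction (median 0.07). The same held for the 6 genes of tail anchor insertion that were matched among 10 listed symbols, older and newer names of one gene included (0.07), and for 5 of GPI transamidase (0.04), 4 of nascent chain and cytosolic partners (0.07) and the 3 of 4 listed genes of signal peptide peptidase that were matched (0.10). Camlg, listed for tail anchor insertion, and Hm13, listed for signal peptide peptidase, were not matched by those symbols and are not counted. Caml, an alternative symbol for Camlg, is among the tested genes, but its values were not read with this list. The 3 matched genes of signal peptide peptidase were Sppl2a, Sppl2b and Sppl3, so Hm13 itself was not followed. At an unadjusted limma p under 0.05, 3308 of all 9936 tested genes passed. Of the ER membrane complex and of tail anchor insertion, 0 genes passed, and 2, 1 and 1 of the other 3 lists. The 2 genes of GPI transamidase were Pigk (log2 change of -0.22) and Gpaa1 (0.19). Of the 6 genes of the TMCO1 translocon, 1 was called higher (16.7%, median 0.08). It was Nomo1, from 262 ± 5.92 to 297 ± 11.8 FPKM, whose adjusted p of 0.0254 became 0.0835 or 0.0624 on leaving out DMSO 1 or 2, and 0.103 or 0.0721 on leaving out NBIF 1 or 3. Its adjusted p was also 0.0713 after median-ratio scaling and 0.0599 with no variance trend. Of 5 tested genes among other OST and translocon genes, 1 was called higher (20%, median -0.03). It was Krtcap2, a partner of STT3A, from 282 ± 5.46 to 328 ± 17.7 FPKM, whose adjusted p of 0.0184 became 0.0675 on leaving out DMSO 1, and 0.0777 or 0.0765 on leaving out NBIF 1 or 3. Whether these lists differ from the 6 complexes was not tested.

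**Figure D5:**
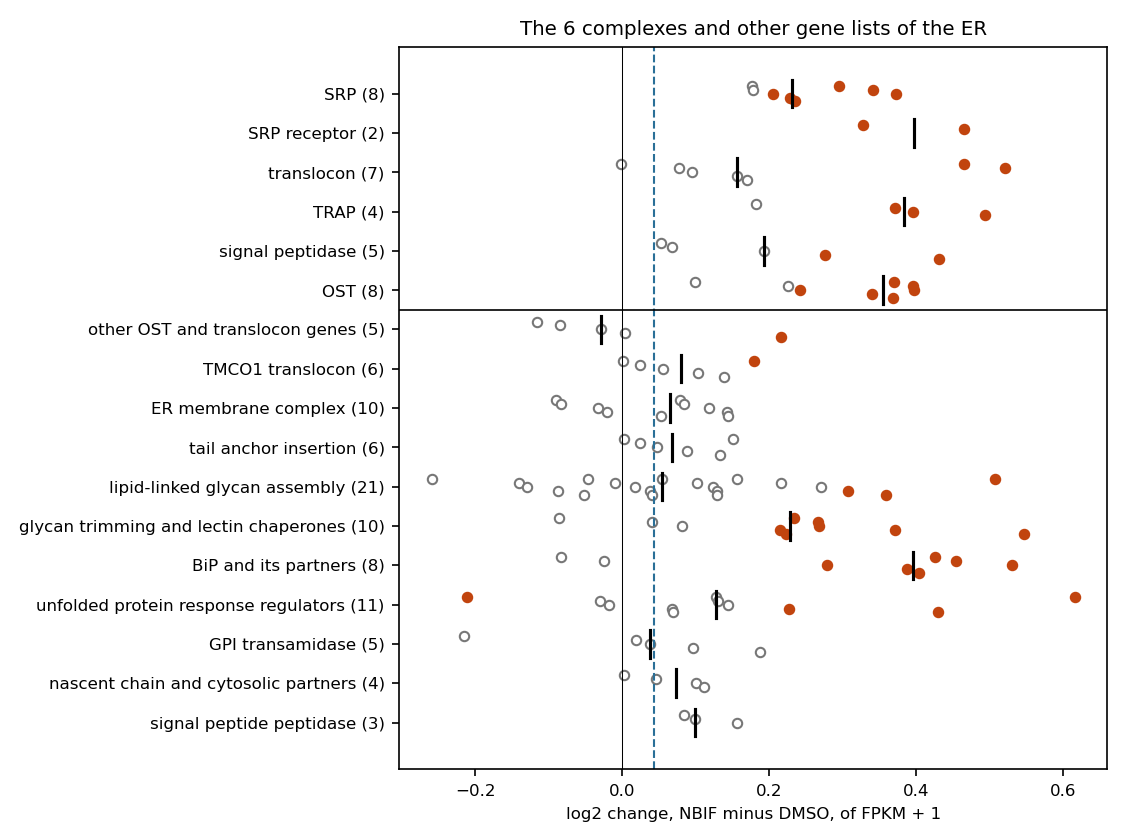
Log2 change with NBIF, on FPKM + 1, of the tested genes of the 6 complexes (above the line) and of 11 other lists, with the number of genes in brackets; filled points passed an adjusted p of 0.05, short vertical bars are medians and the dashed line is the median of all tested genes. Among the 11 other lists, the medians of BiP and its partners (0.40) and glycan trimming (0.23) lie farthest to the right. Only those of GPI transamidase and of other OST and translocon genes lie left of the dashed line. The ER membrane complex (median 0.07) has no filled point.

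Of 11 regulators of the unfolded protein response tested, 3 were called higher and 1 lower, where 10.5% of all tested genes were higher and 8.08% lower. The changes of 8 of the 11 were above 0, as were those of 6059 of all 9936 tested genes. Atf4 was the one called lower. Ern1, which encodes the stress sensor IRE1 alpha that splices Xbp1 RNA, had 54.4, 59.1 and 56.8 FPKM in DMSO and 88.9, 87.8 and 85.7 in NBIF (log2 change of 0.62 ± 0.05, adjusted p = 0.000121). The sensor gene Eif2ak3 (PERK) changed by 0.43 and was called higher. Xbp1 had 40.7, 40.5 and 41.0 FPKM in DMSO and 43.6, 47.2 and 44.7 in NBIF, without overlap (adjusted p = 0.0748), and these values do not separate its spliced form. Atf6 went from 30.2 ± 0.55 to 33.2 ± 0.47 FPKM (adjusted p = 0.0888).

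Atf4, whose product acts downstream of PERK, went from 77.0 ± 2.21 to 66.5 ± 4.56 FPKM, which is -0.21 ± 0.06 on the log2 scale (adjusted p = 0.0378). Leaving out DMSO 1 or 2 ended the call (adjusted p of 0.104 or 0.0898), as did leaving out NBIF 2 or 3 (0.119 or 0.131). The call was also lost with no filter on low values (0.0647) and with no variance trend (0.0607). Ddit3, which encodes the stress factor CHOP, had 39.6, 62.9 and 50.4 FPKM in DMSO and 44.2, 57.4 and 47.6 in NBIF, with a wide spread and overlapping groups (adjusted p = 0.951).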

How the data were processed

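FPKM values were deposited by the authors in 1 table, with gene symbols as rows, and columns were matched to samples by title. In the submitters' processing notes, HISAT2 2.0.5, featureCounts 1.5.0-p3, DESeq2 1.20.0, CASAVA 1.8 and fastp are listed without roles, and so is the human build GRCh38, although the symbols are those of mouse genes. No source used here gives the gene lengths, annotation or strand setting behind the values. Depth is unknown, so no counting interval is given, and no count model was fitted.

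The 9936 genes that averaged 1 FPKM or more were compared as log2(FPKM + 1) by limma 3.58.1 (R 4.3.3; lmFit, eBayes with a variance trend, two-sided), and p-values were adjusted by Benjamini-Hochberg over all of them, with a threshold of 0.05. Log2 changes on this scale understate those of low genes, and ratios of mean FPKM carry no pseudocount. The procedure was tested on simulated data. Members and lists were chosen with earlier results of these data known, and no list was tested as a set. All 34 members are described. The rule gives full statistics for the 2 genes with the largest changes in each complex. It also names up to 2 called genes per other list, and Xbp1, Hspa5, Atf6, Ern1, Atf4 and Ddit3 whatever their values. Other genes were named after their values were seen. Positions, exon lengths and coding sequences come from GENCODE M21 (GRCm38), and promoters from RefSeq (GRCm38.p6). Neither was used to make the values. Coding sequences were aligned with Biopython 1.88. Alternatives were other pseudocounts, filters, scalings and variance priors, a block on the replicate number, and fits without each sample.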

Additional observations from a re-analysis of the deposited data

How the results depend on the processing

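Across 16 alternatives, 18 to 22 of the 34 genes were called higher and 0 were called lower, and 18 of the 21 calls held in all of them. The exceptions were Srp9, Srp19 and Srp72, and Srp54c, Sec61b or Dad1 (adjusted p = 0.0404 after rescaling as TPM) were gained in some. The number of changed genes in the whole table, 1850, ranged from 1006 to 1889 when a sample was left out, and was 1164 without DMSO 1, 1006 without NBIF 1, 1152 without NBIF 2 and 1153 without NBIF 3. After median-ratio scaling, 6.97% of genes were called higher and 10.2% lower, and the median of all genes was 0.01 on the log2 scale. No scaling moved that median by over 0.1. Changes of a few uncalled genes turned their sign. Sec61a2 lay between -0.13 (without DMSO 2) and 0.20 (without DMSO 1). Sec61g was at 0.0018 with a pseudocount of 5, 0.012 after rescaling as TPM, and between -0.11 and 0.14 when a sample was left out, with 0.030 without DMSO 1, 0.023 without DMSO 2 and 0.14 without NBIF 2. Ddit3 lay between -0.18 and 0.14, with 0.14 without DMSO 2, 0.061 without NBIF 1 and 0.0081 without NBIF 3. The log2 change of Srp19 was 0.14 with a pseudocount of 5. Ratios of summed FPKM were lowest after median-ratio scaling, from 1.14 for signal peptidase to 1.31 for the translocon.

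With the replicate number as a block, 19 members were called higher and 1632 genes changed, with Srp9 at an adjusted p of 0.0616 and Srp19 at 0.0758. The numbers do not pair the samples by the labels. Deviations of same-numbered samples correlated at 0.08, 0.13 and 0.04, and DMSO 3 correlated better with NBIF 1 (0.10) than with its own number. Since depth is unknown, how far it limits the genes of low FPKM (Sec61g, Srp19) was not tested.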
